A study of Sus scrofa with 12 samples.

Results

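The miR-17-92 cluster and its paralogues were followed in small RNA-seq of boar testes. Members were the entries of the deposited miRNA table named miR-17, miR-18, miR-19, miR-20, miR-25, miR-92, miR-93, miR-106 or miR-363 with any letter or arm, which gave 38 of the 1452 listed entries. Of these, 14 have pig names (prefix ssc-) and 24 were named without the pig prefix and end in x, y or z, a suffix that the sources used here do not explain. Testes were taken from Hezuo (HZ) boars, a small pig breed that matures early, and from Landrace (LC) boars, at 30 d and at 120 d of age. The 4 groups are Ha (HZ, 30 d), Hb (HZ, 120 d), La (LC, 30 d) and Lb (LC, 120 d), with 3 libraries each and no treatment in any group. The study calls its HZ boars sexually immature at 30 d and mature at 120 d. According to its methods the RNA came from pooled samples. It is not stated if each library is 1 boar, and the spread between libraries may then be partly technical.

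A miRNA is cut from a hairpin in a longer transcript, and the cut leaves a short duplex of a 5p and a 3p strand. The guide strand is usually retained by an Argonaute protein and finds mRNAs mainly through its seed (bases 2 to 8), while its partner strand is mostly lost. In mammals the miR-17-92 transcript carries several hairpins at once, it is switched on by MYC and E2F factors, and it has close copies on the X chromosome and, as the miR-106b, miR-93 and miR-25 hairpins, in an intron of the replication gene MCM7. The cluster is known for promoting cell division and survival, and in mice this cluster and the MCM7 copy have been tied to the differentiation of spermatogonia. The miR-17 seed is best known for targets such as CDKN1A, the miR-18 seed for CCN2 and the miR-92 seed for BCL2L11.

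The guide strands fall into 4 seed groups, and their listed sequences are shown because the results are ordered by these groups. Each is written 5′ to 3′ with T for U as deposited, and the capitals mark the seed. The first 6 share the miR-17 seed, ssc-miR-18a carries the miR-18 seed, the next pair the miR-19 seed and the last 4 the miR-92 seed.
ssc-miR-17-5p: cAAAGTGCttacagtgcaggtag
ssc-miR-20a-5p: tAAAGTGCttatagtgcaggta
ssc-miR-106a: aAAAGTGCttacagtgcaggtagc
ssc-miR-20b: cAAAGTGCtcacagtgcaggtag
miR-93-x: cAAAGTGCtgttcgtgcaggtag
miR-106-x: tAAAGTGCtgacagtgcagat
ssc-miR-18a: tAAGGTGCatctagtgcagata
ssc-miR-19a: tGTGCAAAtctatgcaaaactga
ssc-miR-19b: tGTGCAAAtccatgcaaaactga
ssc-miR-92a: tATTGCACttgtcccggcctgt
ssc-miR-92b-3p: tATTGCACtcgtcccggcctcc
ssc-miR-363: aATTGCACggtatccatctgtaa
miR-25-y: cATTGCACttgtctcggtctga

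Several entries repeat a guide strand and run on for 1 to 3 bases at the 3′ end, and 4 of them are shown because their share of the counts differed between the ages. Set against ssc-miR-17-5p, ssc-miR-20a-5p, ssc-miR-18a and ssc-miR-92a in that order, each keeps the same start and the same seed.
miR-17-x: cAAAGTGCttacagtgcaggtagaa
miR-20-x: tAAAGTGCttatagtgcaggtaga
miR-18-x: tAAGGTGCatctagtgcagataga
miR-92-y: tATTGCACttgtcccggcctgtat

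The partner strands have other seeds. Those of miR-93, miR-18a and miR-17 are shown because the results on partner strands turn on them.
miR-93-y: aCTGCTGAgctagcacttcccga
miR-18-y: aCTGCCCTaagtgctccttct
ssc-miR-17-3p: aCTGCAGTgaaggcacttgtag

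By seed, 10 entries belonged to the miR-17 group, 3 to the miR-18 group, 3 to the miR-19 group and 8 to the miR-92 group. A further 12 entries were partner strands, and miR-17-z and miR-93-z were guide strands of the miR-17 group whose start is shifted by 1 base. In the RefSeq annotation of Sscrofa11.1 the cluster itself lies on chromosome 11, where MIR17 (60734656 to 60734732), MIR18A (60734791 to 60734882), MIR19A (60734939 to 60735020), MIR20A (60735109 to 60735179), MIR19B-1 (60735238 to 60735317) and MIR92A-1 (60735358 to 60735437) follow each other within 782 bases. The X chromosome carries MIR363-1, MIR92A-2, MIR19B-2, MIR20B-1, MIR18B and MIR106A within 917 bases, from 110113552 to 110114468. MIR92B is on chromosome 4 (94624285 to 94624364), and MCM7 is on chromosome 3 (8005890 to 8014047). None of the listed miRNA genes lies within the bounds of another annotated gene. Since ssc-miR-19b and ssc-miR-92a each have a gene in both clusters, their counts pool both loci. Entries such as ssc-miR-19a and ssc-miR-19b, or ssc-miR-20b and ssc-miR-17-5p, differ by 1 edit, so tags may be split between them. Entries that repeat a strand with another end are counted separately, so counts of members are not counts of independent miRNAs.

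Each library held 6520197 to 16874633 counts on listed miRNAs, so that 3 counts, taken as the limit of detection, correspond to 0.158 to 0.404 TPM (the authors' unit, in which a tag count is scaled to the library's own total). PCR copies were not collapsed by molecular identifiers, so this limit and the intervals of shares describe counting error and nothing else. Within every group the replicates were further apart than sampling noise, with a chi-square per degree of freedom of 36.2 to 768. Hb replicate 2 stood apart from the other Hb libraries: its edgeR scaling factor was 0.717 in Ha vs. Hb, against 1.24 and 0.998 in Hb replicates 1 and 3. The log2 fold changes named for HZ boars are therefore also given without it. The gonadal miR-202, the check of the labelled tissue, was abundant in all groups. Its level was lower at 120 d in HZ boars (18568 to 21737 TPM in Ha, 9575 to 17214 TPM in Hb) and higher in LC boars (15179 to 17180.2 TPM in La, 17897 to 24312 TPM in Lb). The summed level of the listed markers of meiotic and haploid germ cells, of which ssc-miR-34c and ssc-miR-184 were found (2 of 6), was 33.9 to 75.8 TPM in Ha and 28.9 to 33.0 TPM in La. It reached 1369, 1742 and 11130.5 TPM in Hb and 9348 to 11650.0 TPM in Lb, so it moved with every age difference below. The smooth muscle pair (2 of 2 found) also moved with age, with means of 26465 and 71352 TPM in Ha and Hb and 21513 and 54491 TPM in La and Lb, while the leukocyte list (4 of 4 found) moved the other way, with means of 1080.4 and 635 TPM in Ha and Hb and 1379 and 993 TPM in La and Lb. The endothelial miR-126 was lower at 120 d without overlap in both breeds, at 12482 to 15560.2 TPM in Ha, 11040.1 to 11909.6 TPM in Hb, 11485 to 13103 TPM in La and 8529 to 10997 TPM in Lb, the same direction as the miR-19 and miR-92 groups below. The erythroid list was lower in Lb (1152 to 1192 TPM) than in La (2085 to 2348 TPM) and overlapped between Ha and Hb, and striated muscle (4 of 4 found) was higher at 120 d, with means of 211 and 551 TPM in Ha and Hb and 149 and 737 TPM in La and Lb. The part of these cells in the results was not tested, and in whole testis fewer cells of a type and less RNA per cell cannot be told apart.

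All members together took a smaller share of the listed counts at 120 d. The share was 2.04, 1.91 and 2.46% in the Ha libraries, 1.43, 0.742 and 1.42% in Hb, 2.63, 2.44 and 2.30% in La, and 1.65, 1.38 and 1.52% in Lb, with no overlap between the ages in either breed. The miR-92 group made up most of this. Its summed level averaged 13732 ± 1990 TPM (SD, n = 3) in Ha, 6813 ± 2199 TPM in Hb, 16181 ± 1103 TPM in La and 8612 ± 725 TPM in Lb. The miR-19 group averaged 2089 ± 491 TPM in Ha, 1221 ± 221 TPM in Hb, 2521 ± 137 TPM in La and 1166 ± 48.5 TPM in Lb. In both groups every 120 d library was below every 30 d library of its breed. The miR-17 group did not separate by age, with 2603 ± 139 TPM in Ha, 2109 ± 934 TPM in Hb, 2650.2 ± 222.7 TPM in La and 2937 ± 357 TPM in Lb. The log2 ratio of its HZ means was -0.30 and turned on single Hb libraries, at -0.53, 0.02 and -0.47 without Hb replicates 1, 2 and 3. The miR-18 group was the smallest, at 44.4 ± 4.89 TPM in Ha, 55.9 ± 28.2 TPM in Hb, 51.8 ± 4.36 TPM in La and 68.6 ± 9.89 TPM in Lb, and was higher at 120 d without overlap in LC boars. In HZ boars its log2 ratio of 0.33 likewise became 0.014, 0.69 and 0.20 without Hb replicates 1, 2 and 3. Without Hb replicate 2 the log2 ratios of the HZ means went from -0.77 to -0.69 for miR-19 and from -1.01 to -0.77 for miR-92.

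**Figure D1:**
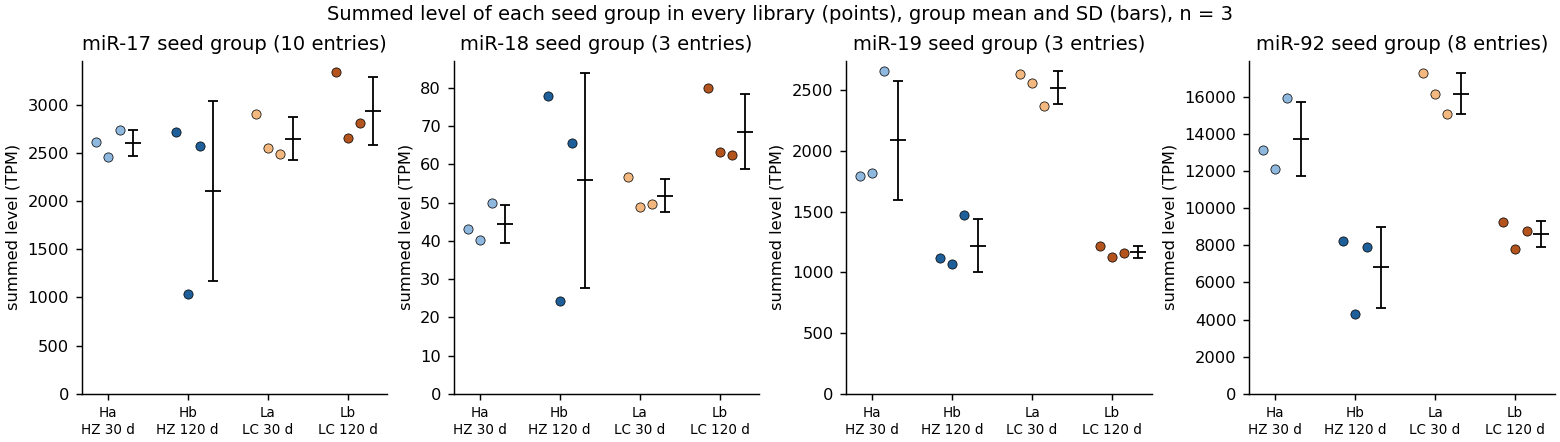
Summed TPM of each seed group (vertical axis, from 0) in every library (points) of Ha, Hb, La and Lb, with the group mean and SD as bars. The miR-19 and miR-92 points of the 120 d groups lie below those of the 30 d groups, whereas the miR-17 points of both ages overlap, with Hb replicate 2 lowest at 1033 TPM.

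The first question was how the members changed between 30 and 120 d in HZ boars (Ha vs. Hb, fold changes as Hb over Ha). In edgeR's quasi-likelihood test, with p-values adjusted by Benjamini-Hochberg over all 1441 miRNAs tested, 10 of 38 members passed an adjusted p-value of 0.05, against 34.3% of all miRNAs. Of these, 1 rose and 9 fell, where 21.3% of all miRNAs rose and 13% fell. The count was 15 without Hb replicate 2, when miR-20-x and miR-18-x also rose, and 6 without Ha replicate 3. Here and below, the share of all miRNAs called was taken in the main fits alone. The counts from alternative fits therefore cannot be set against the whole table. In LC boars (La vs. Lb, as Lb over La) 19 of 38 members passed, against 40.2% of all 1446 miRNAs tested, and 4 rose and 15 fell, where 26.8% of all rose and 13.4% fell. The members' median log2 fold change was -0.55 in HZ boars, against 0.32 over all miRNAs tested, and -0.41 in LC boars, against 0.32. The median over all miRNAs was 0.24 and 0.54 when libraries were scaled by their listed totals instead. The members' medians were not taken on that scale, so they are not to be set against these values. The levels of 17 members in HZ boars and 14 in LC boars were lower at 120 d without overlap between groups, which held for 20.7% and 14% of all miRNAs. None of the members in HZ boars and 7 in LC boars were higher without overlap, against 23% and 36.3% of all. By the study's own thresholds (an absolute log2 fold change over 1 and an unadjusted p-value under 0.05) 11 members passed in each breed, against 39.6% of all miRNAs in HZ boars and 32.1% in LC boars.

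In the miR-92 group 4 of 8 members fell in HZ boars and 7 of 8 in LC boars, where 13% and 13.4% of all miRNAs fell. None rose in either breed, where 21.3% and 26.8% of all rose. These entries are not independent: miR-92-y and miR-92-z share their first 18 bases with ssc-miR-92a, and miR-363-y with ssc-miR-363. Likewise, miR-25-z begins like miR-25-y. The 4 that fell in HZ boars were ssc-miR-92a, miR-92-z, ssc-miR-363 and miR-363-y. The leading member was ssc-miR-92a, which made up a mean of 55.5% of the group's counts and is known from the control of blood vessel growth. Its level was 7741, 7009.8 and 9373 TPM in Ha, 4196, 1834 and 4308 TPM in Hb, 10471, 9723 and 9104 TPM in La, and 5037, 4001 and 4856 TPM in Lb. Every 120 d library was below every 30 d library of its breed. The log2 fold change was -1.16 ± 0.26 (SE) in HZ boars (edgeR adjusted p = 0.00348) and -1.26 ± 0.10 in LC boars (edgeR adjusted p = 4.56e-07), and without Hb replicate 2 it was -0.96 in HZ boars.

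The X-linked ssc-miR-363 carries the same seed in front of different 3′ bases. It was at 634, 565 and 831 TPM in Ha, 216, 125 and 253 TPM in Hb, 605, 439 and 504 TPM in La, and 314, 298 and 289 TPM in Lb, so the ages did not overlap. It fell by 1.68 ± 0.28 on the log2 scale in HZ boars (edgeR adjusted p = 0.000413), or by 1.55 without Hb replicate 2, and by 0.96 ± 0.12 in LC boars (edgeR adjusted p = 4.57e-05). At the other end of the X cluster, ssc-miR-106a of the miR-17 group was low, with means of 20.4 ± 3.63 TPM in Ha, 8.19 ± 2.76 TPM in Hb, 14.2 ± 3.62 TPM in La and 13.8 ± 0.405 TPM in Lb. It fell in HZ boars (log2 fold change -1.20 ± 0.35, edgeR adjusted p = 0.0158), a call that was lost without Ha replicate 3 and kept without Hb replicate 2 (-1.12). The values in LC boars overlapped (log2 fold change -0.22, 95% interval -0.68 to 0.24).

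The guide strand of miR-25, listed as miR-25-y, was the second most abundant member of the miR-92 group. Its level was 3433, 3401 and 4015 TPM in Ha, 2749, 2058 and 2447 TPM in Hb, 4246, 4130.3 and 3628 TPM in La, and 2753, 2403 and 2502 TPM in Lb. The ages did not overlap in either breed. It fell in LC boars (log2 fold change -0.83 ± 0.09, edgeR adjusted p = 1.48e-05), whereas in HZ boars the log2 fold change of -0.45 ± 0.23 did not pass (edgeR adjusted p = 0.136). It passed in HZ boars without Hb replicate 2 (-0.53, edgeR adjusted p = 0.0233) and with all 12 libraries in 1 fit, and stayed uncalled in 12 of 14 alternative fits. The single gene on chromosome 4 gives ssc-miR-92b-3p, which was at 63.5, 72.4 and 86.7 TPM in Ha, 83.0, 13.8 and 49.0 TPM in Hb, 159, 161 and 159 TPM in La, and 81.1, 63.1 and 85.1 TPM in Lb. The La libraries were the highest, and Ha and Hb overlapped. It fell in LC boars (log2 fold change -1.25 ± 0.13, edgeR adjusted p = 1.16e-05) and had a log2 fold change of -0.64 with a 95% interval of -1.48 to 0.20 in HZ boars, where single libraries moved it: it was -0.25 without Hb replicate 2, and passed at -0.93 without Hb replicate 1 (edgeR adjusted p = 0.0460). Among the remaining entries of this seed, miR-92-y, miR-92-z and miR-25-z fell in LC boars, with log2 fold changes of -0.90, -1.06 and -1.502. In HZ boars miR-92-z and miR-363-y fell by 1.19 and 2.05. Without Hb replicate 2 the values were -0.83, no longer called, and -1.72, and the call of miR-92-z held in 9 of 14 alternative fits. The rare miR-363-y held 13, 4 and 13 counts in the Hb libraries, at 0.436 to 1.75 TPM. In LC boars its log2 fold change of -0.64 did not pass (edgeR adjusted p = 0.0968). The ages did not overlap for miR-92-y in HZ boars, and its log2 fold change of -0.89 ± 0.33 did not pass (edgeR adjusted p = 0.0506) but did in 7 of 14 alternative fits, among them those without each of the Hb libraries (-0.55 without Hb replicate 2).

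Both abundant members of the miR-19 group were lower at 120 d. The level of ssc-miR-19b, 90.3% of the group's counts on average, was 1592, 1622 and 2369 TPM in Ha, 1019, 1003 and 1361 TPM in Hb, 2373, 2297 and 2124 TPM in La, and 1103, 1007 and 1041 TPM in Lb. The level of ssc-miR-19a was 196, 195 and 284 TPM in Ha, 93.9, 65.4 and 105.7 TPM in Hb, 260.0, 257 and 243 TPM in La, and 110.3, 112 and 111 TPM in Lb. The ages did not overlap for either. In LC boars ssc-miR-19b fell by 1.29 ± 0.09 on the log2 scale (edgeR adjusted p = 2.09e-07) and ssc-miR-19a by 1.37 ± 0.11 (edgeR adjusted p = 9.89e-07). In HZ boars ssc-miR-19a fell by 1.23 ± 0.28 (edgeR adjusted p = 0.00384), or by 1.20 without Hb replicate 2. There ssc-miR-19b had a log2 fold change of -0.57 ± 0.28 that did not pass (edgeR adjusted p = 0.126). It passed without Hb replicate 2 (-0.66, edgeR adjusted p = 0.0181) and with all 12 libraries in 1 fit, and stayed uncalled in 12 of 14 alternative fits.

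No change with age was called in either breed for the 4 most abundant entries of the miR-17 group in the separate fits, and ssc-miR-20a-5p was called in HZ boars with all 12 libraries in 1 fit (edgeR adjusted p = 0.0344). The group was made up on average of 37.3% ssc-miR-20a-5p, 28.1% miR-93-x, 16.1% ssc-miR-17-5p and 13.6% miR-106-x, and the remaining 6 entries were minor. The level of ssc-miR-20a-5p was 1110.3, 1025 and 1124 TPM in Ha, 826, 389 and 922 TPM in Hb, 1139, 951 and 954 TPM in La, and 1109, 910.3 and 1009 TPM in Lb. Ha and Hb did not overlap, whereas La and Lb covered the same range. The log2 fold change was -0.54 (95% interval -1.10 to 0.02) in HZ boars and -0.19 (-0.41 to 0.03) in LC boars. For ssc-miR-17-5p the levels were 441, 405 and 471 TPM in Ha, 389, 176 and 386 TPM in Hb, 499, 433 and 407 TPM in La, and 494, 393 and 459 TPM in Lb. Ha and Hb again did not overlap, and La and Lb did. Its intervals were -0.96 to 0.15 in HZ boars and -0.41 to 0.06 in LC boars. The guide strand of miR-93, miR-93-x, was at 659, 639.7 and 713 TPM in Ha, 930.0, 274 and 681 TPM in Hb, 811, 734 and 717 TPM in La, and 1027, 791 and 769.6 TPM in Lb. The ages overlapped in both breeds. Its log2 fold change was -0.07 (-0.68 to 0.53) in HZ boars and 0.01 (-0.23 to 0.25) in LC boars, and that of miR-106-x was 0.04 (-0.55 to 0.63) and 0.01 (-0.22 to 0.25). In LC boars none of these intervals reached the -1.26 of ssc-miR-92a, and in HZ boars the lowest bound, -1.10, came close to its -1.16. The error of ssc-miR-92a itself is not counted in this, and differences between members were not tested. Without Hb replicate 2 the HZ values were -0.35 for ssc-miR-20a-5p, -0.22 for ssc-miR-17-5p, 0.19 for miR-93-x and 0.28 for miR-106-x. Among the 3 entries of the miR-18 group, ssc-miR-18a was at 29.4 to 34.8 TPM in Ha, 18.9 to 47.0 TPM in Hb, 39.1 to 45.2 TPM in La and 36.0 to 49.5 TPM in Lb, with overlap between the ages.

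**Figure D2:**
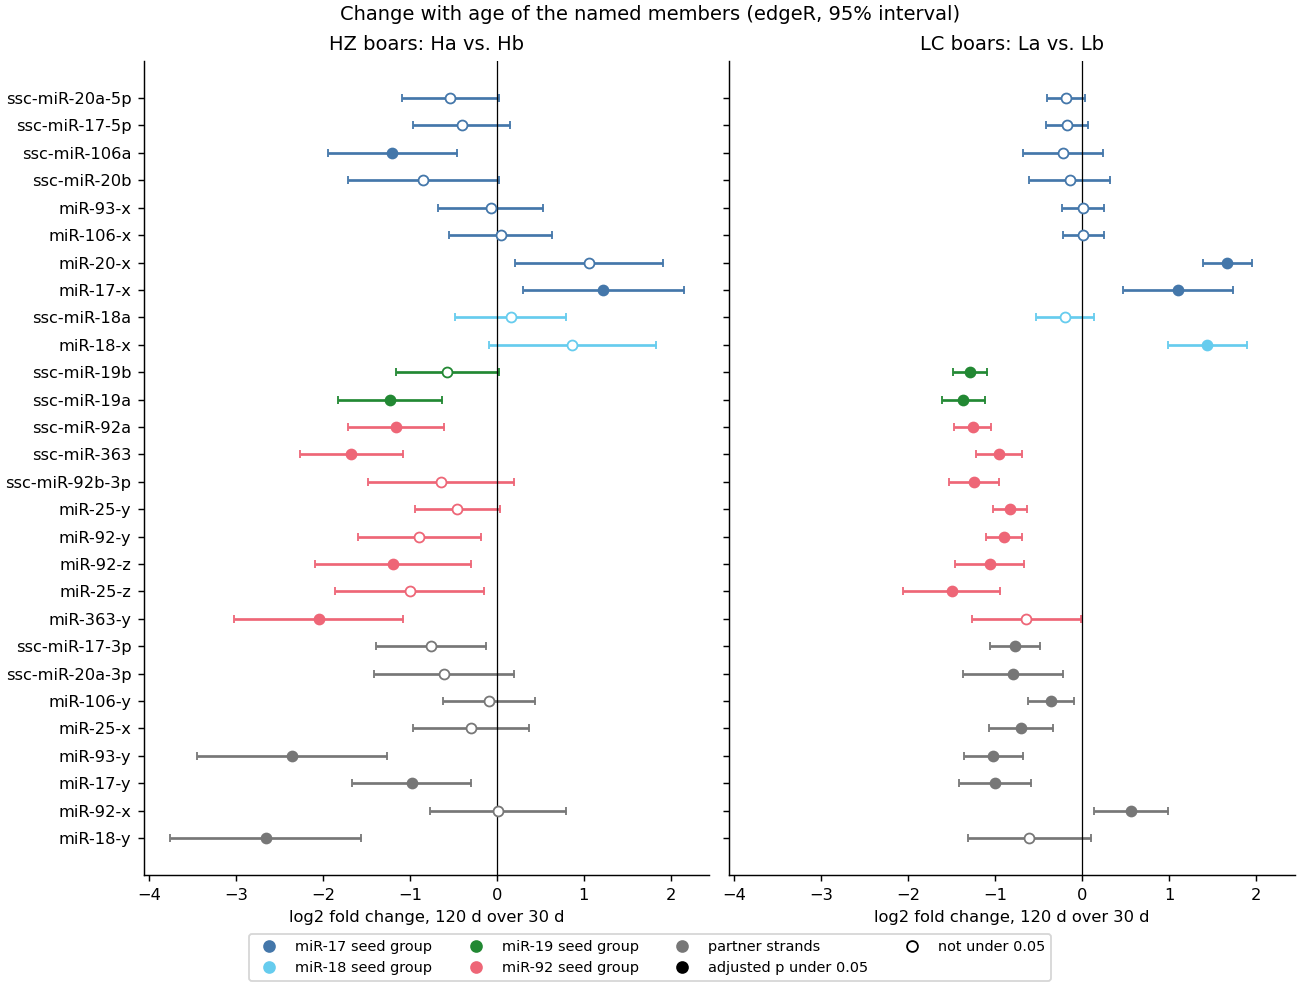
Log2 fold change of the 28 named members (horizontal axis, 120 d over 30 d, the same scale in both panels) in HZ boars (left) and LC boars (right), with edgeR's 95% intervals as bars and filled points where the adjusted p-value was under 0.05. Guide strands of the miR-19 and miR-92 groups lie left of 0 in both panels, those of the miR-17 group near 0 in LC boars, and the longer entries miR-20-x, miR-17-x and miR-18-x right of 0.

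Since the first 6 hairpins on chromosome 11 are read from 1 transcript, their guide strands were also set against ssc-miR-17-5p within each library, a ratio of counts that is free of library scaling. The 30 d libraries held 17.5, 17.3 and 19.9 counts of ssc-miR-92a per count of ssc-miR-17-5p in Ha and 21.0, 22.5 and 22.4 in La. At 120 d there were 10.8, 10.4 and 11.2 in Hb and 10.2, 10.2 and 10.6 in Lb. The ratio was thus lower at 120 d in both breeds, by more than the spread between libraries, and the lowest of the Hb libraries was Hb replicate 2. For ssc-miR-19a the ratio was 0.444, 0.482 and 0.602 in Ha, 0.241, 0.373 and 0.274 for Hb, 0.521, 0.594 and 0.597 in La, and 0.2231, 0.285 and 0.241 for Lb, again with no overlap between the ages. For ssc-miR-19b the LC ratios did not overlap (mean 5.09 ± 0.300 in La, 2.35 ± 0.183 in Lb), whereas the HZ ratios did (4.22 ± 0.733 in Ha, 3.95 ± 1.59 in Hb), with Hb replicate 2 the highest of all libraries at 5.72. The ratio of ssc-miR-20a-5p stayed between 2.12 and 2.53 in all 12 libraries and overlapped between the ages in both breeds. That of ssc-miR-18a was higher at 120 d in HZ boars (0.0718 ± 0.00272 in Ha, 0.107 ± 0.0139 in Hb) and overlapped in LC boars (0.0931 ± 0.00278 in La, 0.0915 ± 0.00871 in Lb). These ratios are descriptions and were not tested. Of the strands that were lower at 120 d relative to ssc-miR-17-5p in at least 1 breed, ssc-miR-92a and ssc-miR-19b also have an X-linked gene. The third, ssc-miR-19a, has none but differs from ssc-miR-19b by 1 edit, so tags may be split between them. The part of the X-linked genes was not tested.

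**Figure D3:**
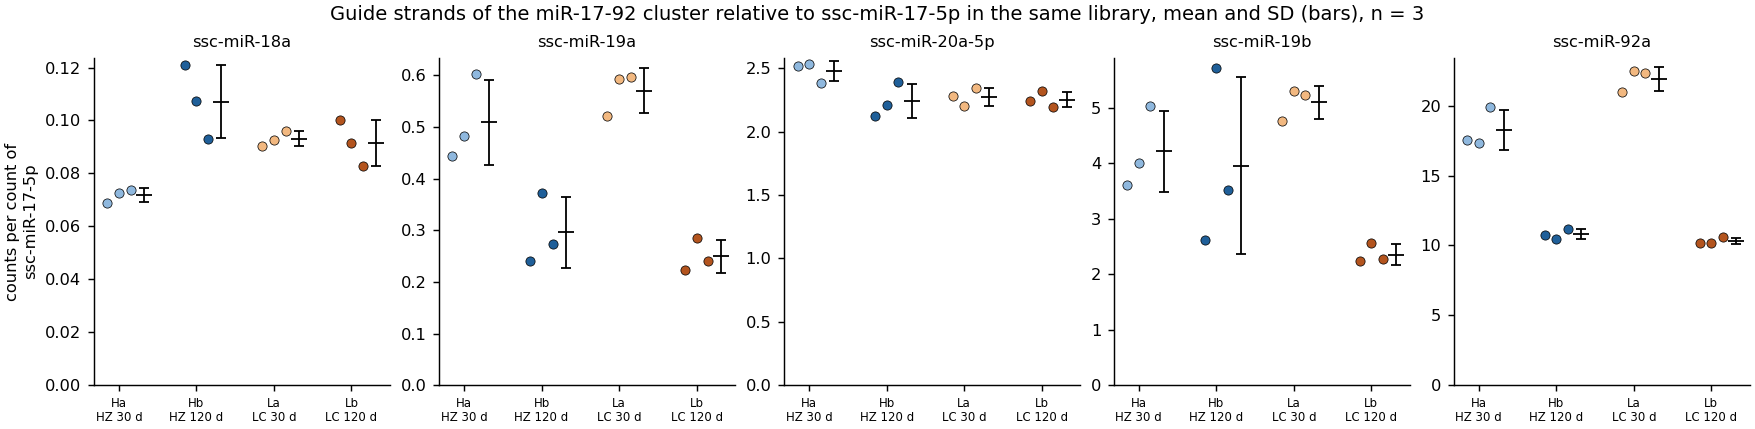
Counts of each chromosome 11 guide strand per count of ssc-miR-17-5p (vertical axes, from 0) in every library (points), in the order of the hairpins, with group mean and SD as bars. The ratios of ssc-miR-19a and ssc-miR-92a are lower at 120 d in both breeds and that of ssc-miR-20a-5p lies between 2.12 and 2.53 throughout.

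The entries that rose with age were, with 1 exception, the longer forms of guide strands. The 24-base miR-20-x was at 62.2, 53.5 and 56.9 TPM in Ha, 156, 31.8 and 169 TPM in Hb, 52.4, 46.9 and 44.4 TPM in La, and 194, 171 and 153 TPM in Lb. Hb replicate 2 was below all other libraries, and the other 120 d libraries were above all 30 d libraries. In LC boars miR-20-x rose (log2 fold change 1.67 ± 0.13, edgeR adjusted p = 5.17e-07). In HZ boars its log2 fold change of 1.06 ± 0.40 did not pass (edgeR adjusted p = 0.0540), and it passed at 1.46 without Hb replicate 2 (edgeR adjusted p = 1.46e-05). It also passed with RLE scaling, with DESeq2, with all 12 libraries in 1 fit and without Hb replicate 1, and stayed uncalled in 9 of 14 alternative fits. The levels of miR-18-x were 12.0, 9.44 and 13.4 TPM in Ha, 30.2, 5.02 and 28.6 TPM in Hb, 10.1, 6.45 and 9.12 TPM in La, and 29.5, 26.7 and 23.1 TPM in Lb. La and Lb did not overlap, and Hb held both the highest and the lowest value. It rose in LC boars by 1.44 ± 0.21 on the log2 scale (edgeR adjusted p = 0.000145), and in HZ boars the log2 fold change was 0.87 (edgeR adjusted p = 0.147), or 1.29 without Hb replicate 2 (edgeR adjusted p = 0.00110). The rare miR-17-x, at 1.48 to 2.43 TPM in the 30 d libraries and 1.96 to 6.62 TPM at 120 d, rose in LC boars (1.10 ± 0.29, edgeR adjusted p = 0.00929) and in HZ boars (1.22 ± 0.43, edgeR adjusted p = 0.0415), where the call held in 7 of 14 alternative fits and the value was 1.47 without Hb replicate 2.

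Within a library, the share of each longer entry in the sum with its shorter form is likewise free of scaling. The share of miR-20-x in miR-20-x plus ssc-miR-20a-5p was 5.31, 4.96 and 4.82% in Ha, 15.9, 7.57 and 15.5% for Hb, 4.39, 4.70 and 4.45% in La, and 14.9, 15.8 and 13.2% for Lb, and the widest 95% Wilson interval among these was 15.05 to 16.72%. It was higher at 120 d without overlap in both breeds, Hb replicate 2 included. The share of miR-17-x in its sum with ssc-miR-17-5p averaged 0.436 ± 0.108% in Ha, 1.29 ± 0.186% for Hb, 0.488 ± 0.126% in La and 1.17 ± 0.217% for Lb, also without overlap between the ages. The share of miR-18-x rested on fewer counts: it was 28.3, 24.3 and 27.8% in Ha, 39.1, 21.0 and 44.3% for Hb, 18.3, 13.8 and 18.9% in La, and 37.4, 42.6 and 37.8% for Lb, with a Wilson interval of 16.1 to 26.9% in Hb replicate 2. LC boars did not overlap between the ages, and HZ boars did because of Hb replicate 2. The share of miR-92-y beside ssc-miR-92a was 13.8 ± 0.884% in Ha, 15.8 ± 3.60% for Hb, 14.9 ± 0.451% in La and 18.4 ± 1.94% for Lb, higher at 120 d without overlap in LC boars. In all, 8 members were longer entries with an identical start of 18 bases, 1 of which, ssc-miR-18b, has an X-linked gene of its own. Their share was higher at 120 d without overlap for 2 of 8 (25%) in HZ boars, beside 16.4% of the 116 such entries of the whole table with a mean of at least 1 TPM, and for 5 of 8 (62.5%) in LC boars, beside 23.3%. None of the 8 was lower without overlap in either breed, beside 23.3% and 17.2% of the 116. Whether the added 3′ bases match the genome was not examined here.

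**Figure D4:**
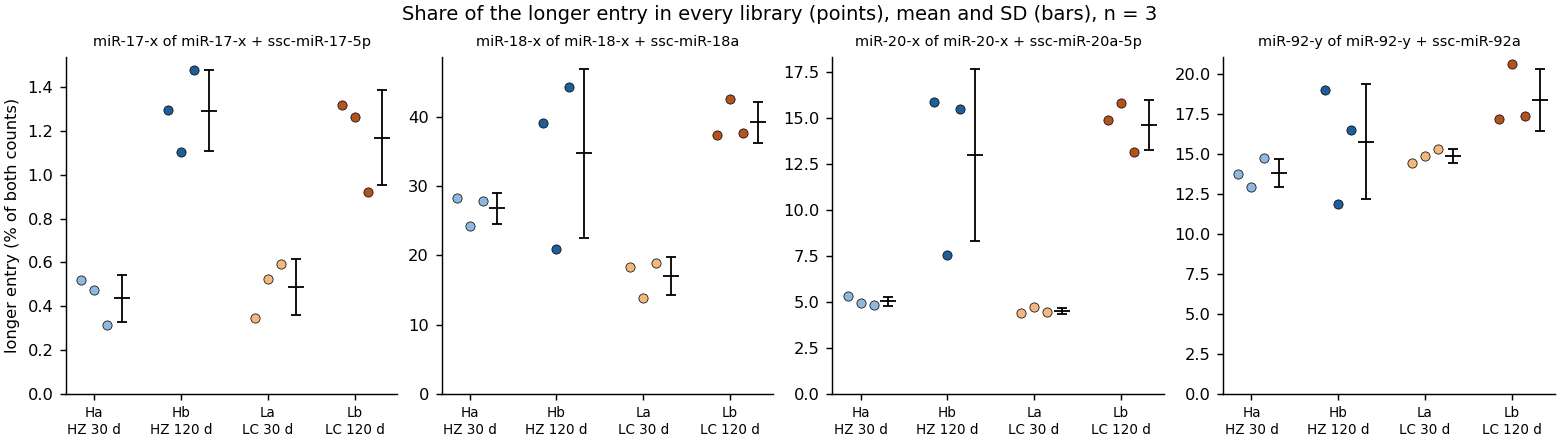
Percent of counts taken by the longer entry in the sum of the longer and the shorter entry (vertical axes, from 0) in every library (points), with group mean and SD as bars. The shares of miR-17-x and miR-20-x are higher at 120 d in both breeds, and Hb replicate 2 is the lowest Hb point in all 4 panels.

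Among the 12 partner strands, 3 fell in HZ boars and 6 in LC boars, where 13% and 13.4% of all miRNAs fell. None rose in HZ boars and 1 in LC boars, where 21.3% and 26.8% of all rose. Some of the LC calls were fragile. That of ssc-miR-20a-3p (-0.79, edgeR adjusted p = 0.0302) was kept in 8 of 14 alternative fits. That of miR-106-y (-0.36, edgeR adjusted p = 0.0309), whose ages overlapped, was kept in 6. The call of miR-25-x (-0.71, edgeR adjusted p = 0.00525) was kept in all 14. The partner of miR-93, miR-93-y, was at 52.4, 41.3 and 53.2 TPM in Ha, 16.7, 1.42 and 11.3 TPM in Hb, 58.8, 44.4 and 55.0 TPM in La, and 30.4, 28.9 and 28.9 TPM in Lb. The ages did not overlap in either breed, and every Hb library was below every Lb library. It fell by 2.36 ± 0.51 on the log2 scale in HZ boars (edgeR adjusted p = 0.00287), or by 1.87 without Hb replicate 2, which held 13 counts of it, and by 1.02 ± 0.16 in LC boars (edgeR adjusted p = 0.000221). Its guide strand miR-93-x had log2 fold changes of -0.07 and 0.01. The strand taken as the partner of miR-18a, miR-18-y, was at 5.44, 5.48 and 5.65 TPM in Ha, 1.89, 0.327 and 0.386 TPM in Hb, 6.54, 5.02 and 4.22 TPM in La, and 5.69, 2.10 and 3.83 TPM in Lb, and Hb replicates 2 and 3 held 3 counts each, the limit of detection. It fell by 2.66 ± 0.51 in HZ boars (edgeR adjusted p = 0.00138), or by 2.38 without Hb replicate 2, and in LC boars, where the ages overlapped, the log2 fold change was -0.61 (edgeR adjusted p = 0.163), or -0.97 without Lb replicate 1, when it passed (edgeR adjusted p = 0.0381). The partner strand ssc-miR-17-3p fell in LC boars (-0.77 ± 0.13, edgeR adjusted p = 0.000542), with a log2 fold change of -0.76 in HZ boars that did not pass (edgeR adjusted p = 0.0607) and was -0.56 without Hb replicate 2, although it passed in 4 of 14 alternative fits (DESeq2, and edgeR with filterByExpr, with all 12 libraries in 1 fit and without Hb replicate 3). Another entry of this strand, miR-17-y, starts 1 base later and was at 7.41 to 26.3 TPM. In HZ boars miR-17-y fell by 0.98 (edgeR adjusted p = 0.0288), or by 0.94 without Hb replicate 2. That call was kept in 6 of 14 alternative fits. In LC boars miR-17-y fell by 1.01 (edgeR adjusted p = 0.00108), a call kept in all 14. The only partner strand that rose was miR-92-x, taken as the opposite strand of ssc-miR-92a on chromosome 11, in LC boars (0.57 ± 0.20, edgeR adjusted p = 0.0354), a call kept in 8 of 14 alternative fits.

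The share of the partner strand in both strands was then taken for 8 hairpins. The strands of miR-18a and miR-92a-1 were paired from knowledge of mammalian hairpins, since their names do not give the locus, miR-106-x and miR-106-y share a name but were assigned to miR-106b in the same way, and the ssc-miR-92a counts also hold the X-linked gene. For miR-93 the share was 7.36, 6.06 and 6.93% in Ha, 1.76, 0.514 and 1.64% for Hb, 6.77, 5.70 and 7.13% in La, and 2.87, 3.53 and 3.62% for Lb, with 95% Wilson intervals of 1.48 to 2.10%, 0.301 to 0.878% and 1.33 to 2.01% in the Hb libraries. It was lower at 120 d without overlap in both breeds, and lower in Hb than in Lb. For miR-18a the share was 15.2, 15.7 and 14.0% in Ha, 3.86, 1.70 and 1.06% for Hb, 12.6, 11.13 and 9.74% in La, and 10.3, 5.51 and 9.15% for Lb, where the interval of Hb replicate 2 was 0.581 to 4.89%. The HZ ages did not overlap and the LC ages did. The miR-17 share was lower at 120 d in both breeds (19.4 ± 1.13% in Ha, 15.8 ± 0.540% for Hb, 21.9 ± 1.04% in La, 15.5 ± 0.693% for Lb), and the miR-92a-1 share was higher in both (0.140 ± 0.0248% in Ha, 0.313 ± 0.0275% for Hb, 0.106 ± 0.00608% in La, 0.376 ± 0.0449% for Lb). The high share of miR-106b, 39.3 ± 0.797% in Ha and 39.2 ± 1.09% in La, was lower in Lb (33.3 ± 0.980%) and overlapped in HZ boars, where Hb replicate 2 was highest at 46.7%. In all, 3 of 8 hairpins had a lower partner share at 120 d without overlap in each breed, and 1 of 8 in HZ boars and 2 of 8 in LC boars a higher one. For the table as a whole, strands could be paired by name alone, which gave 150 pairs with means of at least 1 TPM, 8 of them among the members but not all the same pairs as above. The share of the less abundant strand was lower at 120 d without overlap for 3 of these 8 in HZ boars and 4 in LC boars, beside 23.3% and 21.3% of the 150, and higher for 2 in each breed, beside 22.0% and 28.7%. The shares of miR-20a and miR-25 overlapped between the ages in both breeds.

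**Figure D5:**
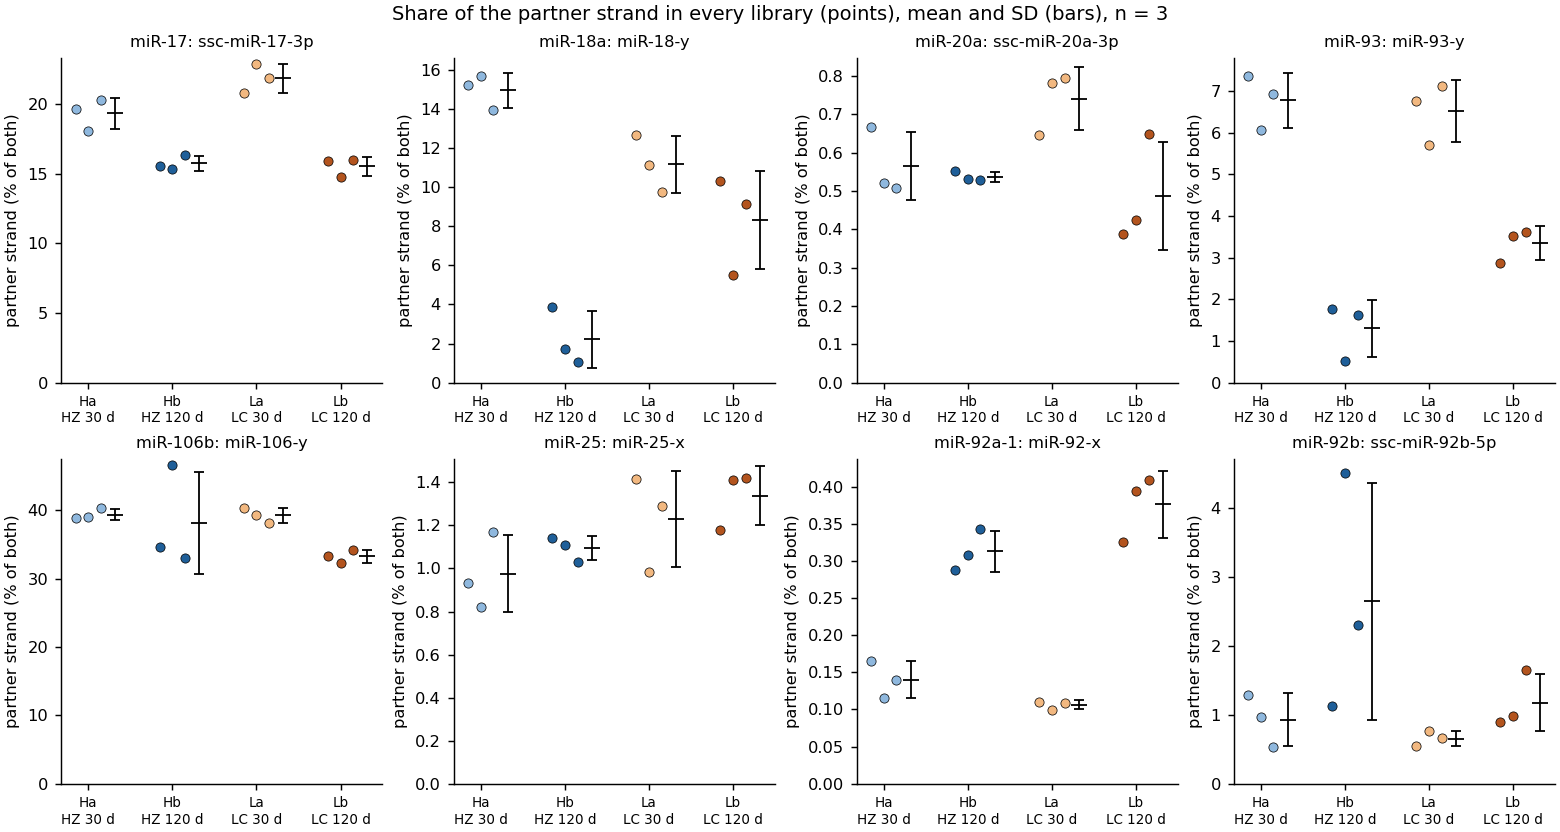
Percent of counts on the partner strand among both strands of 8 hairpins (vertical axes, from 0) in every library (points), with group mean and SD as bars. The miR-93 points of Hb, from 0.514 to 1.76%, are the lowest of that panel, and the miR-18a points of Hb lie below those of all other groups.

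The breeds were compared at each age. At 30 d (Ha vs. La, as La over Ha) 5 of 38 members passed, against 11.3% of all 1278 miRNAs tested, and all 5 were higher in LC boars, where 5.01% of all were higher and 6.34% lower. By the study's thresholds 4 members passed, against 9.47% of all. The members' median log2 fold change was 0.27, against -0.01 over all miRNAs tested. With scaling by listed totals the median over all was -0.11, and that of the members was not taken. The members were ssc-miR-92b-3p (log2 fold change 1.19 ± 0.14, edgeR adjusted p = 5.56e-05), miR-25-z (1.10 ± 0.22, edgeR adjusted p = 0.00521), miR-92-y (0.48 ± 0.13, edgeR adjusted p = 0.0327), ssc-miR-18a (0.48 ± 0.14, edgeR adjusted p = 0.0393) and ssc-miR-92a (0.37 ± 0.11, edgeR adjusted p = 0.0444). Thus 4 of the 5 carry the miR-92 seed, and among them miR-92-y is a longer form of ssc-miR-92a. The level of ssc-miR-92b-3p was 63.5 to 86.7 TPM in Ha and 159 to 161 TPM in La, and that of miR-25-z 3.75 to 4.43 TPM and 7.07 to 8.96 TPM. The call of miR-25-z held in all 14 alternative fits and that of ssc-miR-92b-3p in 13, being lost with all 12 libraries in 1 fit (edgeR adjusted p = 0.0669). The other 3 calls were close to the threshold: they held in 4 (ssc-miR-92a) and 5 (miR-92-y and ssc-miR-18a) of 14 alternative fits, and the count of members called ran from 2 to 14 as single libraries were left out, with 14 without Ha replicate 3. With scaling by listed totals 2 members were called. The erythroid list (3 of 3 found) was also higher in La, with summed levels of 2085 to 2348 TPM against 1284 to 1673 TPM in Ha, as was the leukocyte list, with 1326 to 1455 TPM against 1059 to 1102 TPM. The germ cell list and miR-202 were lower in La without overlap, at the levels given above. The part of these cells in these differences was not tested.

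At 120 d (Hb vs. Lb, as Lb over Hb) no member passed by edgeR's quasi-likelihood test, where 3.25% of all 1444 miRNAs did (1.11% higher and 2.15% lower). At an unadjusted p-value under 0.05 there were 2, against 21.3% of all, by the study's thresholds 2, against 16.8% of all, and DESeq2's Wald test called 2. These were the partner strands miR-18-y (log2 fold change 1.99 ± 0.59, edgeR adjusted p = 0.0824) and miR-93-y (1.49 ± 0.48, edgeR adjusted p = 0.0950). Both had levels in every Lb library above every Hb library, and without Hb replicate 2 the values were 1.78 and 1.06. In edgeR both passed with the replicate number as a block, with all 12 libraries in 1 fit and without Hb replicate 1. In all, 12 members were higher in Lb without overlap, against 18.6% of all miRNAs, and none was lower, against 7.96%. Of the markers, every Lb library was above every Hb library for miR-202 and below every Hb library for miR-126, at the levels given above. The germ cell list was at 1369 and 1742 TPM in Hb replicates 1 and 2, below every Lb library (9348 to 11650.0 TPM). It overlapped with Lb only through Hb replicate 3, at 11130.5 TPM. The part of these cells in these differences was not tested. The members' median was 0.19, against 0.06 over all miRNAs tested. With scaling by listed totals the median over all was 0.32, and that of the members was not taken. Among the guide strands, the log2 fold change of ssc-miR-92a was 0.19 (95% interval -0.38 to 0.76) and that of ssc-miR-19b -0.46 (-1.07 to 0.15), or 0.08 and -0.24 without Hb replicate 2.

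Whether the change with age differed between the breeds was tested as an interaction over all 12 libraries, given as the LC change minus the HZ change. No member passed by edgeR's quasi-likelihood test, where 1.38% of all 1452 miRNAs did, 7 members had an unadjusted p-value under 0.05, against 21.1% of all, 4 passed the study's thresholds, against 17.1%, and DESeq2's Wald test called 1. The member called by DESeq2 was miR-18-y. Without Hb replicate 1 edgeR called 3, miR-18-y (2.96, edgeR adjusted p = 0.00712), ssc-miR-19b (-0.98, edgeR adjusted p = 0.0131) and the rare miR-20-z, which is named here after its values were seen. The largest difference among the named members was that of miR-18-y, 1.998 ± 0.62 (edgeR adjusted p = 0.0851), followed by miR-363-y (1.35 ± 0.51, edgeR adjusted p = 0.135) and miR-93-y (1.28 ± 0.57, edgeR adjusted p = 0.203). The rare miR-363-y held 4 to 13 counts in the Hb libraries. The difference for ssc-miR-19b was -0.78 ± 0.30 (edgeR adjusted p = 0.139) and that for ssc-miR-92a -0.16 with a 95% interval of -0.73 to 0.42. In the fit of all 12 libraries, members called in 1 breed and not in the other were thus not shown to differ between the breeds, and for miR-18-y and ssc-miR-19b this depended on Hb replicate 1.

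The 10 members not named by the rule reached a mean of at most 4.97 TPM in any group. They include the remaining partner strands miR-19-x, miR-20-y, miR-363-x and ssc-miR-92b-5p, the shifted miR-17-z and miR-93-z, and the X-linked ssc-miR-18b, whose group means were 0.722 to 1.78 TPM. Of all 38 members, 33 had a count in every library, and all 38 entered each of the tests.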

How the data were processed

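Small RNA of testis was sequenced after selection of 18 to 30 nt, with 3 libraries in each of 4 groups. Reads were cleaned by the authors with fastp, tags of other non-coding RNAs and of exons, introns and repeats were taken out, and the authors matched the rest to miRBase and, with miRDeep2, to predicted hairpins on Sscrofa11.1. The deposited counts are raw tag counts per listed miRNA. The TPM that the authors deposited scales each count by a library total and writes a count of 0 as 0.01.

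All 1452 listed miRNAs were fitted with edgeR 4.0.16 in R 4.3.3 (glmQLFit and glmQLFTest, TMM scaling), separately for each comparison over the miRNAs with a total of at least 1 count in it, and p-values were adjusted by Benjamini-Hochberg over all miRNAs tested. A member was called at an adjusted p-value under 0.05. The fits were tested on simulated counts. Named members averaged 10 TPM or more in some group, or were called with 1 TPM or more, or were miR-93-y. Guide and partner strands were paired by name or, for miR-18a and miR-92a-1, from knowledge of mammalian hairpins, from which miR-106-x and miR-106-y were also assigned to miR-106b. Ratios and shares are of raw counts. Positions are from RefSeq (Sscrofa11.1).

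Alternatives were other scalings, filterByExpr, DESeq2 1.42.0, the study's thresholds (absolute log2 fold change over 1 and unadjusted p-value under 0.05), 1 fit of all libraries, a replicate block and leaving out each library. The members and lists were chosen with earlier results of these data known.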

Additional observations from a re-analysis of the deposited data

How the results depend on the processing

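Over 14 alternative fits of each of 34 calls of named members, 406 of 476 kept the call, 70 lost it and none turned the direction, and 23 calls were kept in every fit. The count of members called in Ha vs. Hb was 10 and became 17 with all 12 libraries in 1 fit and 6 to 15 as single libraries were left out. In La vs. Lb it was 19, 11 by the study's thresholds, and 16 to 19 without single libraries. In Ha vs. La it was 5, 2 with either scaling by library totals, 3 with filterByExpr, 1 with all libraries in 1 fit, and 2 to 14 without single libraries. In Hb vs. Lb it was 0, 2 by the study's thresholds, with DESeq2, with the replicate block and with all libraries in 1 fit, and 0 to 2 without single libraries. For the interaction it was 0, 4 by the study's thresholds, 1 with DESeq2, and 0 to 3 without single libraries, the 3 being without Hb replicate 1. The share of all miRNAs called was not taken in the alternative fits, so these counts do not show if the members moved apart from the whole table. The cause of these moves was not tested.

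The log2 change of the summed miR-19 group in HZ boars was -0.77, and -1.29 without its most abundant entry. In LC boars the summed miR-17 group went from 0.15 to -0.088, miR-18 from 0.41 to 0.17, miR-19 from -1.11 to -1.35 and miR-92 from -0.91 to -1.15 with TMM-scaled CPM in place of TPM, so the sign for miR-17 depends on the scaling. Without the most abundant entry miR-18 was 1.41 and miR-92 -0.69. Same-numbered libraries did not deviate together (correlations of -0.22 to 0.19 over 742 miRNAs), and with the replicate number as a block 9 and 17 members were called with age in HZ and LC boars, 5 and 2 between the breeds at 30 and 120 d, and 0 for the interaction. Depth limits the rare entries, such as miR-18-y, at 3 counts in Hb replicates 2 and 3.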

Other observations

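Outside the members, 7 entries of the table carry a guide seed of the cluster, all of them that of the miR-92 group, and no entry outside carries the miR-17, miR-18 or miR-19 seed. The only one with a mean of at least 10 TPM was ssc-miR-32 (tATTGCACattactaagttgc), which has a hairpin of its own and shares bases 1 to 8 with ssc-miR-92a. Its level averaged 132 ± 8.42 TPM in Ha, 171 ± 72.2 TPM in Hb, 133.4 ± 8.26 TPM in La and 157 ± 24.3 TPM in Lb. Its log2 fold change was 0.42 ± 0.26 in HZ boars (edgeR adjusted p = 0.235) and 0.06 ± 0.14 in LC boars (edgeR adjusted p = 0.744), so no change with age was called in either breed for this entry of the miR-92 seed. Among the other 6, miR-235-y, named after its values were seen, was called lower at 120 d in HZ boars (edgeR adjusted p = 0.0481) and in LC boars (edgeR adjusted p = 0.00380). It was rare, with means of 0.777 TPM in Ha, 0.0846 TPM in Hb, 1.14 TPM in La and 0.173 TPM in Lb, the means at 120 d being under the limit of 3 counts.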
